A study of Saccharomyces cerevisiae with 18 samples.

Results

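The 10 genes described here belong to the Aft1 regulon of Saccharomyces cerevisiae and are called iron uptake genes for short. Among them *TIS11* encodes an RNA-binding protein, and surface reductase genes such as *FRE1* were read in a separate list. They were taken by name from the table of counts per gene, 10 of its 7127 gene identifiers, and all 10 were among the 5757 genes that passed the low-count filter. RNA was sequenced from *snf2Δ*, *snf5Δ* and wild type (wt) cells, either 30 min after the addition of 3 mM cysteine to YPD, a rich medium (YPD+Cys), or in YPD alone, with 3 replicates in each of 6 groups. All strains were BY4741, a haploid laboratory strain of mating type a that lacks *LEU2*, *MET17* and *URA3* and carries a mutant HIS3, grown at 30 °C to an OD600 of 0.4 to 0.8. In each mutant a KanMX4 cassette replaced the open reading frame, and each genotype was a single strain. *SNF2* encodes the ATPase of Swi-Snf, a complex that moves nucleosomes, and *SNF5* encodes another subunit of it. Met17 makes homocysteine from sulfide, so that all groups, wt included, carried a lesion in sulfur assimilation.

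Yeast takes up iron by a reductive route, in which iron is reduced at the cell surface, reoxidised by Fet3 and carried in by Ftr1, and by a second route that imports iron bound to siderophores, the small chelators that microbes secrete. Aft1 is the transcription factor that turns on both routes when iron, or the iron-sulfur clusters made in mitochondria, run short, and it binds a short sequence with the core CACCC. In a rich medium the genes are expressed below the level they reach when iron is scarce.

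The labels held in the libraries. *SNF2* had 1.2 to 5.2 CPM in *snf2Δ* libraries, against 187 to 253 CPM in wt libraries, and *SNF5* had at most 0.3 CPM in *snf5Δ* libraries, against 45.5 to 57.8 CPM in wt libraries. CPM are counts relative to library size after TMM scaling, which sets libraries to the bulk of their genes. *LEU2*, *URA3* and *MET17* had no counts in any library, and the 4 genes that mark mating type a, namely *STE2*, *BAR1*, *MFA1* and *MFA2*, were present in all libraries but lower in both mutants. Of the markers of mating type alpha, *STE3* averaged 1.85 to 10.4 CPM over the groups and *MF(ALPHA)1* at most 0.383 CPM. *STE3* was higher in *snf2Δ* than in wt cells, by 1.56 in YPD and 2.23 in YPD+Cys on the log2 scale (edgeR, adjusted p = 0.00162 and 0.000105). In *snf5Δ* cells it was higher in YPD+Cys, by 1.48 (adjusted p = 0.00511), and not called in YPD, at 0.52 (adjusted p = 0.27). Counts in genes ran from 1329986 to 4845830 per library. In *snf2Δ* replicates 2 and 3 and *snf5Δ* replicate 3 in YPD, 53.5%, 44.6% and 71.4% of reads had several places in the genome and were not counted, and wt replicate 3 in YPD had 28.6%.

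All 10 genes carried the 7 letters TGCACCC, which extend the Aft1 core, on either strand within 500 bases before the start codon, as did 2.3% of 6000 yeast genes. In 6 of the 10 the letters occurred 2 or more times, as in 0.2% of all genes. The shorter GCACCC lies within it and was found before 10 of 10 and 7.6% of all genes. In the nearest 250 bases the 7 letters were found in 7 of the 10 genes and in 1.1% of 6001 genes. A match is a description of the letters and was not tested for binding. The 10 genes were chosen as members of the Aft1 regulon, so their share is no independent evidence of control by Aft1. Other targets of Aft1 were not counted apart. The match nearest to each start codon is shown because it is the feature that the 10 genes share upstream. The 7 letters are in capitals, each read 5′ to 3′ on the strand given, from the RefSeq sequence of build R64 (sacCer3). Distances are counted to the outer end of GCACCC. Where the match is on the strand of the gene, the leading T lies just beyond that point. In *FET3* this puts the T outside the nearest 250 bases.
*FIT1*, chrIV:1505065-1505093, plus strand, 182 bases before the start codon: attcattttttTGCACCCtttcctagaac
*FIT2*, chrXV:1059389-1059417, minus strand, 131 bases before the start codon: gctaattatacTGCACCCagttagattcg
*FIT3*, chrXV:1061222-1061250, plus strand, 184 bases before the start codon: ccccattttttTGCACCCtttcctagaat
*ARN1*, chrVIII:21214-21242, minus strand, 259 bases before the start codon: atttatcaaaaTGCACCCataaaagcagg
*ARN2*, chrVIII:10643-10671, plus strand, 447 bases before the start codon: gaactaagaacTGCACCCattttctgatt
*SIT1*, chrV:27458-27486, minus strand, 188 bases before the start codon: acgaaccagatTGCACCCtcaaatgtgtt
*ENB1*, chrXV:21431-21459, minus strand, 136 bases before the start codon: cggcttacaatTGCACCCctctgtggctt
*FET3*, chrXIII:388560-388588, plus strand, 250 bases before the start codon: atcttcaaaagTGCACCCatttgcaggtg
*FTR1*, chrV:461898-461926, minus strand, 174 bases before the start codon: gcgtagatgaaTGCACCCgatttctaagt
*TIS11*, chrXII:416814-416842, plus strand, 173 bases before the start codon: tgctggcacaaTGCACCCaactgcatgtg

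*FIT2* had the most matches, 4, while *ARN1*, *ARN2*, *SIT1* and *FET3* had 1 each. In *ARN2* the only match lay 447 bases out. The windows of *FIT1* and *FIT3* resemble each other, and the regions upstream of these 2 genes share a run of 25 identical bases, against at most 13 for any other pair.

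**Figure D1:**
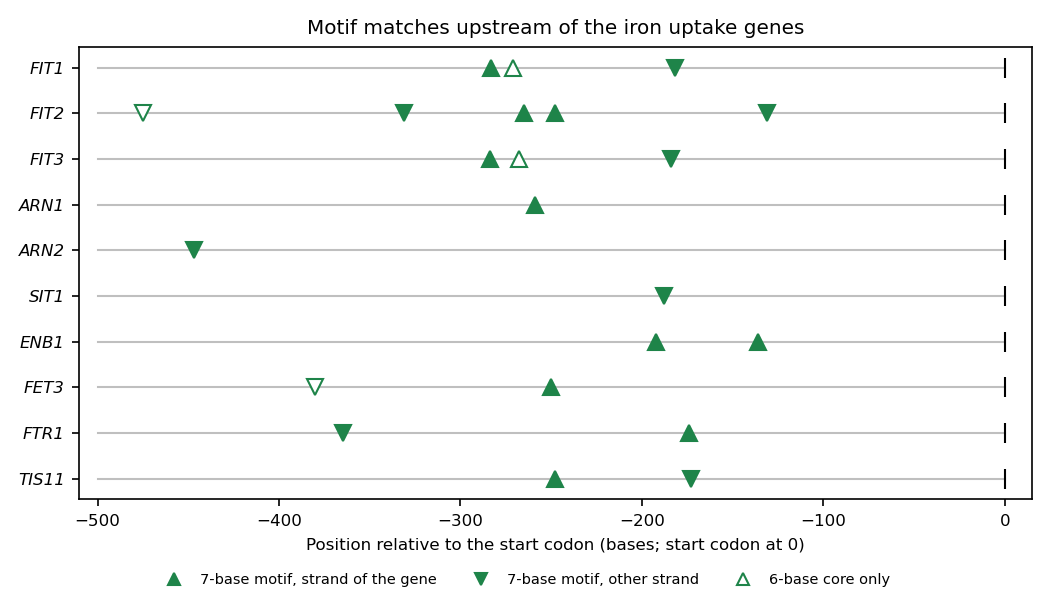
Matches upstream of each of the 10 genes, drawn against the distance to the start codon in bases. Filled triangles are the 7 letters, pointing up on the strand of the gene and down on the other strand, and open triangles are GCACCC alone. Every gene has at least 1 filled triangle, and the lone one of *ARN2* is the farthest from its gene at 447 bases.

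Most of the genes lie near chromosome ends. *FIT1* (YDR534C, chrIV:1503314-1504900), *FIT2* (YOR382W, chrXV:1059531-1059992), *FIT3* (YOR383C, chrXV:1060441-1061055), *ARN1* (YHL040C, chrVIII:19088-20971), *ARN2* (YHL047C, chrVIII:8351-10213), *SIT1* (YEL065W, chrV:27657-29543) and *ENB1* (YOL158C, chrXV:19491-21311) lie 8.4 to 31.3 kb from a chromosome end. *FTR1* (YER145C, chrV:460526-461740), *FET3* (YMR058W, chrXIII:388822-390732) and *TIS11* (YLR136C, chrXII:415801-416658) lie 115.1, 388.8 and 415.8 kb from one. *FIT2* and *FIT3* are neighbours that face each other, 448 bases apart. Of 312 other genes within 35 kb of an end, a limit set after the positions were seen, 10.6% were lower in *snf2Δ* than in wt cells in YPD, against 11.8% of 5194 genes farther in. In *snf5Δ* cells 17% of the near and 13.8% of the far genes were lower. With cysteine added, the gap in this mutant was wider, as 16.7% of the near genes passed as lower, against 10.5% of the far genes. The *snf2Δ* shares for YPD+Cys lay closer together, at 10.6% near an end and 11.6% farther in. Called higher in *snf2Δ* cells were 10.6% of the near and 7.91% of the far genes in YPD, and 11.9% and 7.66% in YPD+Cys. The higher shares in *snf5Δ* cells were 12.8% near and 12.3% far in YPD, and 11.5% and 9.95% in YPD+Cys.

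In YPD, 8 of the 10 genes were lower in *snf2Δ* than in wt cells, at an adjusted p under 0.05, and 4 were lower in *snf5Δ* cells. Of all genes tested, 11.8% were lower in *snf2Δ* and 15% in *snf5Δ* cells. None of the 10 was called higher in either. In YPD all *snf2Δ* libraries lay below all wt libraries for 8 of the 10 genes, against 17.4% of all genes, and all *snf5Δ* libraries for 4, against 21.1%. In YPD+Cys this held for 9, against 17.2%, and for 6, against 19.3%. The median log2 fold change of the 10 was -1.91 in *snf2Δ* and -0.765 in *snf5Δ* cells, where the median of all genes was 0.0187 and -0.00874. In YPD+Cys, 9 of the 10 were lower in *snf2Δ* cells, against 11.6% of all genes, and 6 were lower in *snf5Δ* cells, against 11.3%. The balance of all calls depended on the scaling. With library totals in place of TMM, 1206 genes were higher and 355 lower in *snf2Δ* cells in YPD, against 454 and 682 with TMM, and 1945 were higher and 367 lower in *snf5Δ* cells, against 689 and 865. Of the 10 genes, 8 were then lower in *snf2Δ* cells, and 4 were lower and 2 higher in *snf5Δ* cells. In YPD+Cys library totals gave 779 higher and 367 lower in *snf2Δ* cells, against 445 and 668, and 1165 higher and 313 lower in *snf5Δ* cells, against 560 and 652, with 9 and 4 of the 10 lower. With limma on log2(TPM + 1), where the median of all genes moved to 0.193 in *snf2Δ* and 0.44 in *snf5Δ* cells in YPD and to 0.457 and 0.731 in YPD+Cys, 6 and 4 of the 10 were lower in YPD and 7 and 4 in YPD+Cys, and none was higher. The shares of all genes above are those of edgeR and do not hold for limma. Limma called fewer of all genes lower in YPD+Cys, as given with the Aft1 and Aft2 targets. Both mutants share the wt libraries of a medium. In bulk RNA, less RNA per cell and fewer cells that express a gene cannot be told apart.

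**Figure D2:**
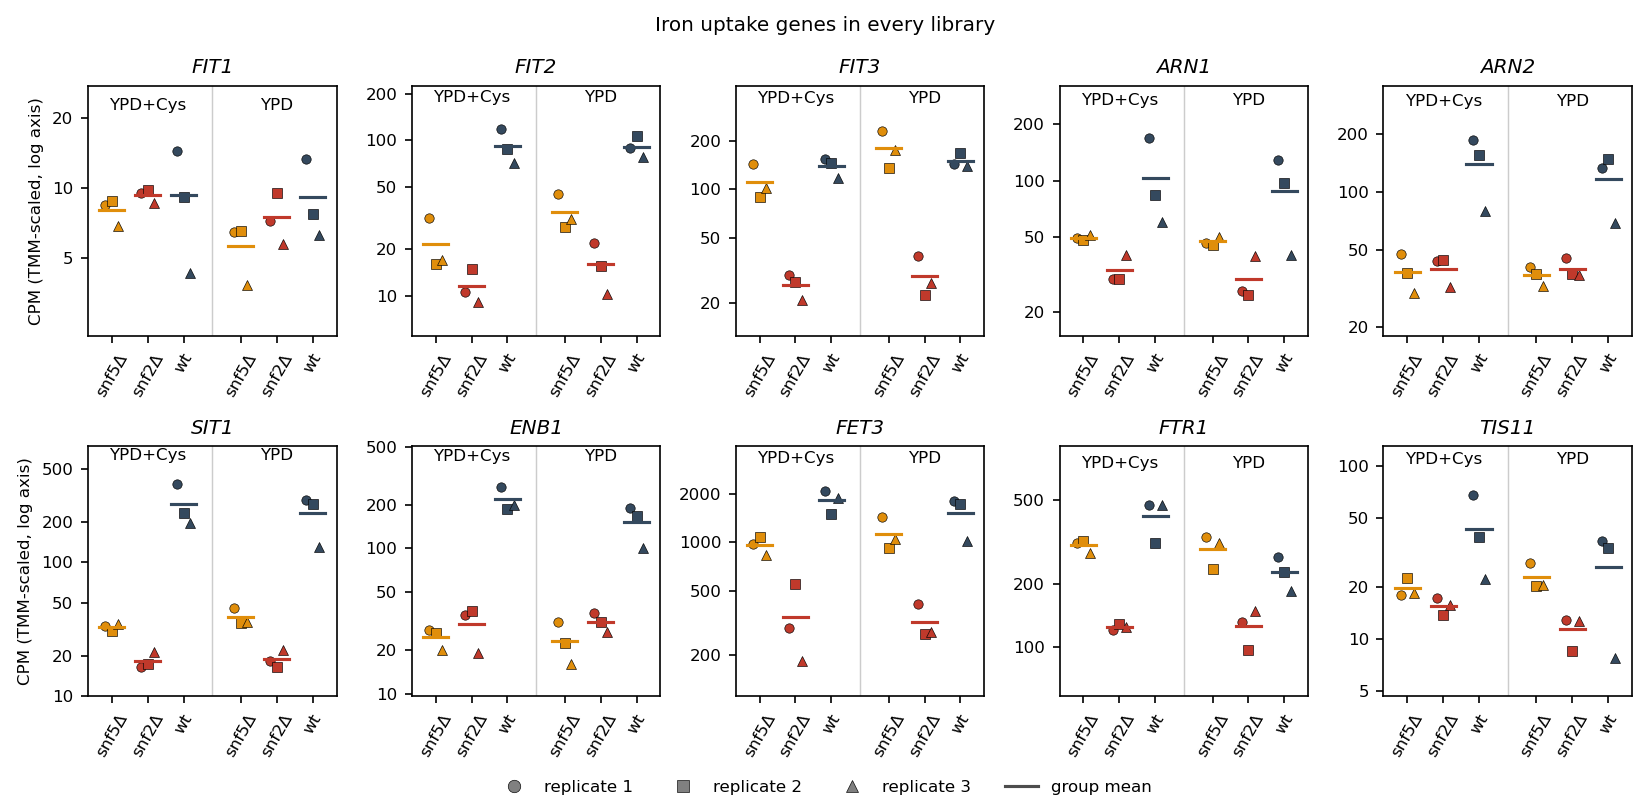
CPM of each of the 10 genes in the 18 libraries (log axis), with *snf5Δ*, *snf2Δ* and wt libraries in YPD+Cys on the left of each panel and in YPD on the right. Symbols mark the replicate number and bars the group mean. All *snf2Δ* libraries lie below all wt libraries of the same medium for 8 genes in YPD and 9 in YPD+Cys.

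Of the 4 siderophore transporters, *SIT1*, *ENB1* and *ARN2* were lower in both mutants in both media. Values are given for replicates 1, 2 and 3 in turn. *SIT1*, the transporter of ferrioxamine B, had 18.4, 16.6 and 22.2 CPM in *snf2Δ* cells and 45.6, 35.4 and 35.8 CPM in *snf5Δ* cells, against 294, 273 and 130.1 CPM in wt cells in YPD. All libraries of both mutants lay below the lowest wt library, and the *snf2Δ* libraries below the *snf5Δ* ones. The log2 fold change was -3.61 (SE 0.30, adjusted p = 3.83e-07) in *snf2Δ* and -2.57 (SE 0.28, adjusted p = 5.98e-06) in *snf5Δ* cells. In YPD+Cys *SIT1* had 16.6, 17.3 and 21.5 CPM in *snf2Δ* cells and 33.4, 30.9 and 34.6 CPM in *snf5Δ* cells, against 388, 235 and 197 CPM in wt cells, with log2 fold changes of -3.88 and -3.05. *SIT1* thus had the largest decrease of the 10 genes in *snf2Δ* cells in both media.

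*ENB1*, which transports enterobactin, a bacterial siderophore, was lower in both mutants. It had 36.1, 31.3 and 26.7 CPM in *snf2Δ* cells and 31, 22.3 and 16 CPM in *snf5Δ* cells, against 188, 166 and 100.2 CPM in wt cells in YPD. The log2 fold change was -2.26 (SE 0.28, adjusted p = 2.48e-05) in *snf2Δ* and -2.67 (SE 0.29, adjusted p = 4.47e-06) in *snf5Δ* cells, the largest decrease of the 10 in *snf5Δ* cells. In YPD+Cys it had 34.6, 37.3 and 19 CPM in *snf2Δ* cells and 27.3, 26.2 and 20.02 CPM in *snf5Δ* cells, against 265, 187 and 199.8 CPM in wt cells, with log2 fold changes of -2.85 and -3.15.

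*ARN2*, the transporter of triacetylfusarinine C, had 45.4, 37.5 and 37.3 CPM in *snf2Δ* cells and 40.7, 37.5 and 32.6 CPM in *snf5Δ* cells, against 133, 147 and 68.8 CPM in wt cells in YPD. Its log2 fold change was -1.53 (SE 0.30, adjusted p = 0.00179) in *snf2Δ* and -1.64 (SE 0.30, adjusted p = 0.000753) in *snf5Δ* cells, and no mutant library reached the lowest wt library. In YPD+Cys *ARN2* had 43.7, 44.3 and 32.4 CPM in *snf2Δ* cells and 47.5, 38 and 29.9 CPM in *snf5Δ* cells, against 186, 154 and 79.6 CPM in wt cells, with log2 fold changes of -1.804 and -1.86. *ARN1*, which takes up ferrichrome-type siderophores, spread more widely in wt cells. It had 25.8, 24.7 and 39.4 CPM in *snf2Δ* cells and 46.6, 45.5 and 49.8 CPM in *snf5Δ* cells, against 128, 96.5 and 39.9 CPM in wt cells in YPD. The third wt library lay just above the highest *snf2Δ* library and below all *snf5Δ* libraries. *ARN1* was called lower in *snf2Δ* cells, at -1.57 (SE 0.38, adjusted p = 0.00741), and not in *snf5Δ* cells, at -0.91 (SE 0.36, adjusted p = 0.0749). Without wt replicate 3 it was called in *snf5Δ* cells too, at -1.25 (adjusted p = 0.0111), and without wt replicate 1 its call in *snf2Δ* cells was lost (adjusted p = 0.0527), as it was with limma on log2(TPM + 1), at -1.05 (adjusted p = 0.0947).

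In YPD+Cys *ARN1* had 30.01, 30.00 and 39.9 CPM in *snf2Δ* cells and 49.5, 48.1 and 51.6 CPM in *snf5Δ* cells, against 168, 83.3 and 59.96 CPM in wt cells. The groups did not overlap. The log2 fold change was -1.64 (SE 0.36, adjusted p = 0.00442) in *snf2Δ* and -1.06 (SE 0.35, adjusted p = 0.0418) in *snf5Δ* cells. With limma on log2(TPM + 1) the value in *snf2Δ* cells was -0.91 (adjusted p = 0.0696). The call in *snf5Δ* cells was lost without wt replicate 1, at -0.51 (adjusted p = 0.315), and without each *snf5Δ* replicate in turn, and with limma the value was -0.16 (adjusted p = 0.687).

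The FIT genes encode mannoproteins of the cell wall that help to hold siderophore-bound iron. *FIT2* had 21.9, 15.7 and 10.3 CPM in *snf2Δ* cells and 45, 27.9 and 31.3 CPM in *snf5Δ* cells, against 88.9, 107 and 77.6 CPM in wt cells in YPD. It was lower in both mutants, with log2 fold changes of -2.47 (SE 0.31, adjusted p = 3.04e-05) in *snf2Δ* and -1.39 (SE 0.29, adjusted p = 0.00212) in *snf5Δ* cells. *FIT3*, its neighbour on chromosome XV, had 38.6, 22.3 and 26.3 CPM in *snf2Δ* cells and 229, 135 and 176 CPM in *snf5Δ* cells, against 144, 169 and 139 CPM in wt cells. *FIT3* was lower in *snf2Δ* cells, at -2.34 (SE 0.24, adjusted p = 3.55e-06), while in *snf5Δ* cells its libraries overlapped those of wt, at 0.26 (SE 0.22, adjusted p = 0.416). The 95% interval of its log2 fold change in *snf5Δ* cells was -0.20 to 0.72, against -1.99 to -0.78 for *FIT2*.

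In YPD+Cys *FIT2* had 10.6, 15 and 9.20 CPM in *snf2Δ* cells and 31.8, 16 and 17 CPM in *snf5Δ* cells, against 118, 87.4 and 72.1 CPM in wt cells, with log2 fold changes of -3.003 and -2.11. *FIT3* had 29.8, 27 and 20.7 CPM in *snf2Δ* cells and 144, 90.4 and 101 CPM in *snf5Δ* cells, against 155, 147 and 118 CPM in wt cells. It was again lower in *snf2Δ* cells, at -2.44, and not called in *snf5Δ* cells, at -0.32 (SE 0.22, adjusted p = 0.33). *FIT1* was the lowest of the 10 genes, with 1.52 TPM on average in wt cells in YPD, and TPM are per gene length. It had 7.22, 9.49 and 5.75 CPM in *snf2Δ* cells and 6.47, 6.54 and 3.83 CPM in *snf5Δ* cells, against 13.4, 7.69 and 6.28 CPM in wt cells. The groups overlapped, and its log2 fold change was -0.302 (SE 0.37, adjusted p = 0.617) in *snf2Δ* and -0.62 (SE 0.37, adjusted p = 0.245) in *snf5Δ* cells. In YPD+Cys it was not called either, with 95% intervals of -0.70 to 0.69 in *snf2Δ* and -0.92 to 0.52 in *snf5Δ* cells.

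*FET3*, the multicopper ferroxidase, was the most abundant of the 10 per gene length, at 192 TPM on average in wt cells in YPD. It had 411, 267 and 275 CPM in *snf2Δ* cells and 1431, 919 and 1050.5 CPM in *snf5Δ* cells, against 1797, 1723 and 1019 CPM in wt cells. All *snf2Δ* libraries were below all others, while *snf5Δ* and wt libraries overlapped. The log2 fold change was -2.25 (SE 0.33, adjusted p = 0.000172) in *snf2Δ* and -0.42 (SE 0.32, adjusted p = 0.368) in *snf5Δ* cells. In YPD+Cys *FET3* had 295, 550.0 and 183 CPM in *snf2Δ* cells and 979, 1072 and 833 CPM in *snf5Δ* cells, against 2083, 1509 and 1893 CPM in wt cells. It was lower in both mutants there, at -2.42 (SE 0.33, adjusted p = 8.42e-05) and -0.93 (SE 0.32, adjusted p = 0.0478). The call in *snf5Δ* cells was lost when wt replicate 1 or 3, or each of the *snf5Δ* libraries in turn, was left out (adjusted p from 0.0984 to 0.137), and with library totals, expected counts, another low-count filter or none (adjusted p from 0.0501 to 0.0989). On log2(TPM + 1) with limma, where the median of all genes moved to 0.731, the value was -0.09 (adjusted p = 0.824).

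*FTR1*, the iron permease that works in a complex with Fet3, had 131, 96.3 and 147 CPM in *snf2Δ* cells and 332, 235 and 314 CPM in *snf5Δ* cells, against 268, 227 and 184 CPM in wt cells in YPD. It was lower in *snf2Δ* cells, at -0.86 (SE 0.19, adjusted p = 0.00469), and not called in *snf5Δ* cells, at 0.37 (SE 0.19, adjusted p = 0.161). With limma on log2(TPM + 1) the call in *snf2Δ* cells was lost, at -0.67 (adjusted p = 0.256). With libraries scaled by their totals, which moved the median of all genes by 0.339 in *snf5Δ* cells, *FTR1* and *FIT3* were called higher in *snf5Δ* cells, at 0.72 (adjusted p = 0.00988) and 0.61 (adjusted p = 0.0269). In YPD+Cys *FTR1* had 119, 129 and 123 CPM in *snf2Δ* cells and 314, 318 and 281 CPM in *snf5Δ* cells, against 477, 311 and 475 CPM in wt cells. The log2 fold change was -1.77 (SE 0.19, adjusted p = 6.86e-06) in *snf2Δ* and -0.47 (SE 0.19, adjusted p = 0.0876) in *snf5Δ* cells, and the *snf5Δ* difference was called without wt replicate 2, at -0.65 (adjusted p = 0.0216).

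*TIS11*, also known as CTH2, encodes an RNA-binding protein that lowers the mRNAs of iron-using proteins when iron is scarce. It had 12.8, 8.54 and 12.7 CPM in *snf2Δ* cells and 27.5, 20.1 and 20.4 CPM in *snf5Δ* cells, against 36.8, 33.3 and 7.76 CPM in wt cells in YPD. The third wt library lay below all libraries of both mutants, and neither difference was called, at -1.18 (SE 0.45, adjusted p = 0.0779) in *snf2Δ* and -0.200 (SE 0.42, adjusted p = 0.771) in *snf5Δ* cells. Without that library *TIS11* was called lower in *snf2Δ* cells, at -1.60 (adjusted p = 0.00682), and DESeq2 called it with all libraries (adjusted p = 0.0408). In YPD+Cys it had 17.2, 13.8 and 15.7 CPM in *snf2Δ* cells and 18, 22.5 and 18.4 CPM in *snf5Δ* cells, against 68.1, 38.7 and 22 CPM in wt cells. It was called lower in *snf2Δ* cells, at -1.46 (SE 0.40, adjusted p = 0.0177), and not in *snf5Δ* cells, at -1.12 (SE 0.40, adjusted p = 0.0563). The call in *snf2Δ* cells was lost without wt replicate 1 (-0.93, adjusted p = 0.133) or *snf2Δ* replicate 1 or 2, and with limma on log2(TPM + 1), at -0.61 (adjusted p = 0.258). A call in *snf5Δ* cells was gained without wt replicate 3 (-1.44, adjusted p = 0.0201) and with DESeq2 (adjusted p = 0.0408).

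The wt libraries ranked alike across the genes in part. Replicate 3 in YPD, the one with 28.6% of multiply placed reads, was the lowest of its group in 10 of 10 genes. In YPD+Cys replicate 1 was the highest in 10 of 10. The highest in YPD was replicate 1 in 7 genes and replicate 2 in 3. The lowest in YPD+Cys was replicate 3 in 7 genes and replicate 2 in 3. The share of all genes with these ranks was not counted. The part of the multiply placed reads in these levels was not tested. Without the 3 mutant libraries in which over 40% of reads had several places, 5 genes instead of 8 were called lower in *snf2Δ* cells in YPD, and *ARN1*, *ARN2* and *FTR1* lost their calls (adjusted p = 0.0768, 0.0861 and 0.0874), at log2 fold changes of -1.75, -1.33 and -0.76. That fit has 1 *snf2Δ* library in YPD, which is assumed to vary like the other groups.

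**Figure D3:**
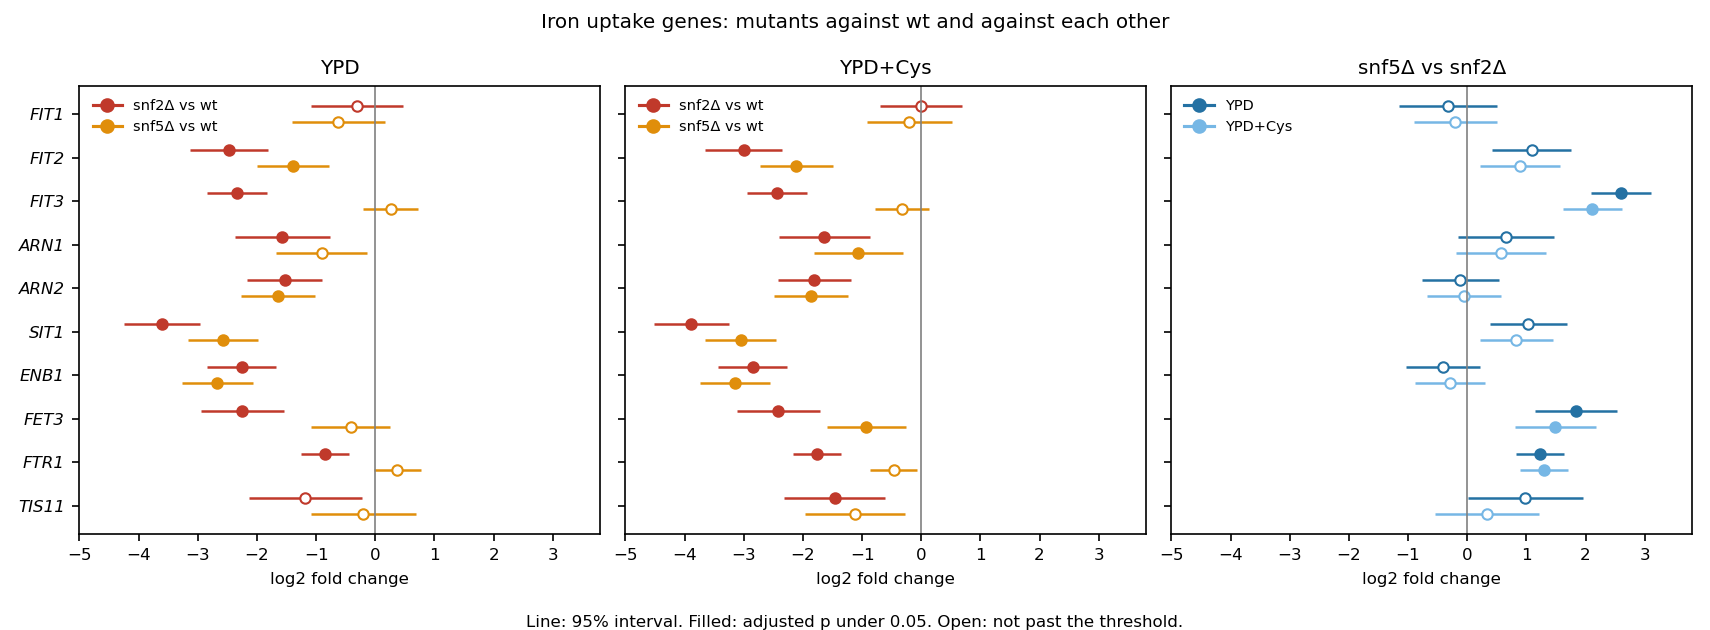
Log2 fold changes of the 10 genes with their 95% intervals, for *snf2Δ* and *snf5Δ* against wt in YPD (left) and YPD+Cys (middle) and for *snf5Δ* against *snf2Δ* in both media (right). Filled points passed an adjusted p of 0.05. *FIT3*, *FET3* and *FTR1* have filled points in both media on the right, at 1.23 to 2.60.

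The mutants differed from each other in a few of the genes. Directly compared, 3 of the 10 were higher in *snf5Δ* than in *snf2Δ* cells in YPD, against 1.68% of all genes, and the same 3 in YPD+Cys, against 1.37%. These shares rest on 172 calls in either direction in YPD, of which as few as 64 were made when *snf2Δ* replicate 1 was left out, and on 146 in YPD+Cys, with as few as 78 without *snf5Δ* replicate 2. *FIT3* differed by 2.599 (SE 0.24, adjusted p = 6.4e-06) in YPD and 2.12 (SE 0.24, adjusted p = 5.96e-05) in YPD+Cys. For *FET3* the differences were 1.83 (SE 0.33, adjusted p = 0.00472) and 1.49 (SE 0.32, adjusted p = 0.0174), and for *FTR1* 1.23 (SE 0.19, adjusted p = 0.00212) and 1.298 (SE 0.19, adjusted p = 0.000922). In 7 of the 10 genes all *snf5Δ* libraries lay above all *snf2Δ* libraries, in either medium, against 9.83% of all genes in YPD and 8.49% in YPD+Cys. *FIT2* and *SIT1* were not called in either medium, at 1.09 (SE 0.32, adjusted p = 0.0798) and 1.04 (SE 0.31, adjusted p = 0.0872) in YPD. In YPD *FIT2* was called higher in *snf5Δ* cells with replicate number as a block, at 1.09 (adjusted p = 0.0143), and with library totals, DESeq2 and limma on log2(TPM + 1) (adjusted p from 0.0221 to 0.0483). *SIT1* was called with DESeq2, limma on log2(TPM + 0.1) and the compared groups alone in YPD (adjusted p from 0.0274 to 0.0331), and with the groups alone in YPD+Cys (0.83, adjusted p = 0.0405). For *ARN2* and *ENB1* the 95% intervals of the difference in YPD were -0.77 to 0.54 and -1.03 to 0.22. Without the 3 libraries named above, the differences of *FET3* and *FTR1* in YPD were 1.53 (adjusted p = 0.285) and 1.13 (adjusted p = 0.113), and only *FIT3* kept its call. In YPD+Cys the call of *FET3* was lost without *snf2Δ* replicate 1 or *snf5Δ* replicate 1 or 2. It was also lost there with the compared groups alone, at 1.49 (adjusted p = 0.0871).

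Summed over the 10 genes, RNA per gene length came to 151, 91.5 and 138 TPM in *snf2Δ* cells and 626, 438 and 342 TPM in *snf5Δ* cells, against 518, 469 and 365 TPM in wt cells in YPD. The *snf2Δ* libraries lay apart from all others, and those of *snf5Δ* and wt overlapped. The sums follow the abundant genes most. *FET3* alone had 285, 198 and 148 TPM in *snf5Δ* and 232, 199 and 145 TPM in wt cells. The overlap does not hold for each gene, as *SIT1*, *ENB1*, *ARN2* and *FIT2* were called lower in *snf5Δ* cells. In YPD+Cys the sums were 135, 173 and 131 TPM in *snf2Δ* cells and 430, 577 and 376 TPM in *snf5Δ* cells, against 631, 363 and 621 TPM in wt cells. TPM are not corrected by TMM.

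The cysteine comparisons ask whether the added amino acid changed the genes within a strain. In wt cells, 1 of the 10 was higher in YPD+Cys than in YPD, against 0.208% of all genes. This was *FTR1*, with 477, 311 and 475 CPM in YPD+Cys, against 268, 227 and 184 CPM in YPD, at 0.895 (SE 0.19, adjusted p = 0.0475). No library overlapped, but the call was lost without wt replicate 1 or 3 in YPD+Cys or replicate 2 or 3 in YPD (adjusted p from 0.138 to 0.265). In *snf2Δ* and *snf5Δ* cells none of the 10 was called with edgeR, against 0.643% and 0.903% of all genes called in either direction. An unadjusted p under 0.05 was found for 0 and 2 of the 10, against 260 and 241 of all 5757 genes. DESeq2 and limma called none of the 10 in either mutant.

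Same-numbered libraries of a strain deviated together, so that a block for the number, set up separately in each strain, was added to the cysteine comparisons. In wt cells *ENB1* and *TIS11* then joined *FTR1* as higher in YPD+Cys, at 0.53 (adjusted p = 0.00399) and 0.72 (adjusted p = 0.00988). In *snf5Δ* cells *FIT2* and *FIT3* were lower in YPD+Cys, at -0.69 (adjusted p = 0.0238) and -0.68 (adjusted p = 1.45e-05). *FIT3* had 144, 90.4 and 101 CPM in YPD+Cys, against 229, 135 and 176 CPM in YPD in these cells, and it was lower in each of the 3 numbered pairs. In *snf2Δ* cells none was called with the block either. Over all genes the block raised the calls several-fold in each strain, with the counts given at the end.

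A test of whether cysteine acted differently in a mutant and in wt called none of the 10 without the block. Of all genes it called 0.0869% for *snf2Δ* and 0.33% for *snf5Δ* cells. An unadjusted p under 0.05 was found for 115 and 153 of all 5757 genes, and for 1 of the 10 in each. That gene was *FTR1*, whose response differed from that of wt by -0.91 (SE 0.27, adjusted p = 0.875) in *snf2Δ* and -0.84 (SE 0.27, adjusted p = 0.619) in *snf5Δ* cells. With the block it was called in both, at -0.89 (adjusted p = 0.0442) and -0.81 (adjusted p = 0.0315), and *FIT3* was called in *snf5Δ* cells, at -0.57 (adjusted p = 0.0122). The block raised the calls over all genes several-fold for both differences too. These comparisons share the wt libraries.

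**Figure D4:**
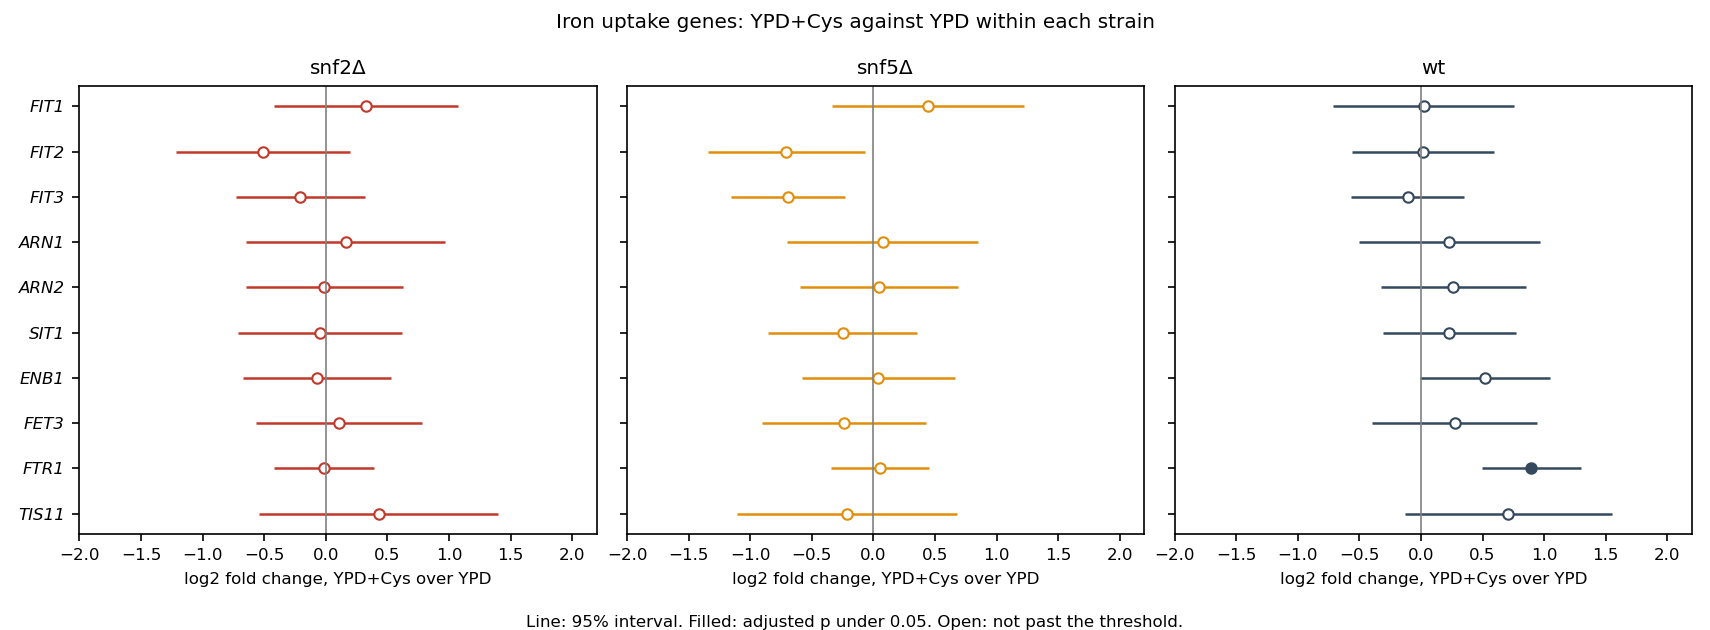
Log2 fold changes of the 10 genes in YPD+Cys over YPD within *snf2Δ* (left), *snf5Δ* (middle) and wt cells (right), from the fit without a block, with 95% intervals. The single filled point, past an adjusted p of 0.05, is *FTR1* in wt cells at 0.90.

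Across the 18 libraries the 10 genes varied together to different degrees. Over the 45 pairs, Pearson's r of log2(CPM + 1) had a median of 0.691, from -0.156 to 0.957, and the highest was that of *ARN2* and *ENB1*. The libraries share their strains, media and scaling, and r is given as a description. The genes outside the 10 whose pattern was most like their mean were *DSE1* (r = 0.953), *FAA3* (0.951), *NDJ1* (0.94), *YDL124W* (0.94) and *PDR5* (0.926). *PDR5*, a drug efflux pump, averaged 296 CPM in *snf2Δ* and 347 CPM in *snf5Δ* cells, against 1600 CPM in wt cells in YPD.

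Other genes of iron metabolism were read in the same fit. Of 19 further targets of Aft1 and its paralog Aft2, 18 were tested, and in YPD 1 was lower and 3 were higher in *snf2Δ* cells, while 2 were lower and 5 were higher in *snf5Δ* cells. Of all genes, 11.8% were lower and 7.89% higher in *snf2Δ* cells, and 15% lower and 12% higher in *snf5Δ* cells. The median log2 fold change was -0.078 and 0.17. *FRE1*, the main surface iron and copper reductase, was lower in both mutants, at -1.61 (SE 0.30, adjusted p = 0.00145) in *snf2Δ* and -1.84 (SE 0.31, adjusted p = 0.00036) in *snf5Δ* cells. *FET4*, the low-affinity iron transporter, was lower in *snf5Δ* cells at -0.54, and leaving out *snf5Δ* library 2 or 3 or wt library 1 or 3 ended the call, with adjusted p between 0.0509 and 0.0783. It was at -0.20 (adjusted p = 0.336) with library totals and at -0.06 (adjusted p = 0.876) with limma on log2(TPM + 1). *ISU1*, the scaffold for iron-sulfur clusters, and *MRS4*, a mitochondrial iron carrier, were higher in both mutants. The *snf2Δ* values were 0.48 for *ISU1* and 0.45 for *MRS4*, and those of *snf5Δ* cells 0.48 and 0.70. *FRE4* was also called higher in *snf2Δ* cells, and *CCC2*, *FET5* and *TMT1* in *snf5Δ* cells. Each of these further calls was lost when certain single libraries were left out. The call of *MRS4* in *snf2Δ* cells ended when *snf2Δ* library 1 or 2 or wt library 1 or 3 was dropped, with adjusted p between 0.0582 and 0.152, and those of *ISU1* and *MRS4* in *snf2Δ* cells with limma on log2(TPM + 1) (adjusted p = 0.178 and 0.125) and without the 3 libraries with many multiply placed reads (adjusted p = 0.0845 and 0.126). In YPD+Cys, 3 were lower and 2 higher in *snf2Δ* cells, against 11.6% and 7.73% of all genes, and 3 were lower and 3 higher in *snf5Δ* cells, against 11.3% and 9.73%. With limma this balance turned, to 0 lower and 5 higher in *snf2Δ* and 0 lower and 9 higher in *snf5Δ* cells, where 839 and 3452 of all genes were called higher and 93 and 105 lower. The lower calls with edgeR were *FRE1*, *FRE2* and *FRE5* in *snf2Δ* and *FRE1*, *FRE2* and *FET4* in *snf5Δ* cells. Limma on log2(TPM + 1) put *FRE1* at -0.69 and -0.46 (adjusted p = 0.101 and 0.182) and *FRE2* at -0.18 and 0.01. Leaving out any wt library ended the call of *FRE5* (adjusted p from 0.0586 to 0.112). *FRE1* fell with cysteine in every strain, by 1.91 in *snf2Δ*, 1.72 in *snf5Δ* and 2.12 in wt cells on the log2 scale. With the compared groups alone its call in wt cells was lost (-2.1, adjusted p = 0.11). The call in *snf5Δ* cells was lost without YPD+Cys replicate 2 (adjusted p = 0.0756), and that in *snf2Δ* cells without the libraries with many multiply placed reads (-1.43, adjusted p = 0.589).

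Of 9 regulators of iron uptake, none was lower in either mutant, against the shares of all genes given for the Aft1 and Aft2 targets, which hold for the iron users and copper genes too. In YPD, *YAP5*, an activator of vacuolar iron storage, was higher in *snf2Δ* cells at 0.96 (SE 0.22, adjusted p = 0.0057) and in *snf5Δ* cells at 1.10 (SE 0.22, adjusted p = 0.00149). Without the 3 libraries with many multiply placed reads the call in *snf2Δ* cells was lost (0.89, adjusted p = 0.0808). *AFT1* itself was higher in *snf5Δ* cells, at 0.48 (SE 0.17, adjusted p = 0.0481). This call ended when *snf5Δ* library 1 or 2 or wt library 2 or 3 was dropped, with adjusted p between 0.051 and 0.219. *FRA1*, a part of the signal that restrains Aft1, was higher there at 0.44. In YPD+Cys none of the 9 was called with edgeR, and 0 in *snf2Δ* and 1 in *snf5Δ* cells had an unadjusted p under 0.05. Among all 5757 genes, 1839 and 1952 did. DESeq2 called 0 in *snf2Δ* and 1 in *snf5Δ* cells, and limma on log2(TPM + 1) called 2 and 6 higher. Of 17 genes for iron-using proteins and cluster assembly, 1 was lower and 1 higher in *snf2Δ* cells in YPD, namely *ACO1*, which encodes aconitase, at -0.96 and *CCP1*, a mitochondrial peroxidase, at 0.54. The call of *ACO1* was lost without *snf2Δ* replicate 1 (adjusted p = 0.0578), and both calls were lost without the 3 libraries (adjusted p = 0.0632 each) and with limma (adjusted p = 0.215 and 0.196). In *snf5Δ* cells *BIO2*, the biotin synthase gene, was lower at -0.95 and *LEU1*, *NFS1* and *RIP1* were higher, at 0.78, 0.40 and 0.80. Leaving out wt replicate 3 or *snf5Δ* replicate 1 ended the call of *BIO2*, wt replicate 1 or 2 or *snf5Δ* replicate 2 that of *LEU1*, and wt replicate 2 or *snf5Δ* replicate 1 that of *NFS1*. *BIO2* was at -0.60 (adjusted p = 0.0733) with library totals and at -0.33 (adjusted p = 0.442) with limma. In YPD+Cys *RIP1*, the Rieske protein of the respiratory chain, was higher at 0.70 in *snf2Δ* and 1.26 in *snf5Δ* cells, and in *snf5Δ* cells *SDH2* and *SDH4*, subunits of succinate dehydrogenase, were higher, at 0.84 and 0.62, and *BIO2* was lower, at -1.23. Dropping *snf5Δ* library 1 or 2 or wt library 1 ended the calls of *SDH2* and *SDH4* (adjusted p between 0.0542 and 0.104), as dropping wt library 3 did for *SDH4* (adjusted p = 0.109), and with limma on log2(TPM + 1) *BIO2* was at -0.24 (adjusted p = 0.507). In *snf5Δ* cells in YPD+Cys edgeR thus called 3 of the 17 higher and 1 lower, and limma 13 higher and 0 lower.

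Fet3 needs copper, and of 4 genes of copper supply *CTR1*, the copper transporter, and *FRE7*, a reductase, were lower in both mutants in YPD. *CTR1* was at -0.97 (SE 0.31, adjusted p = 0.0352) in *snf2Δ* and -0.98 (SE 0.31, adjusted p = 0.0271) in *snf5Δ* cells, and *FRE7* at -2.73 and -2.52. *MAC1*, the copper-sensing activator of both, was higher in *snf5Δ* cells, at 0.51 (adjusted p = 0.0215), but not when their library 1 was dropped (0.40, adjusted p = 0.113). For *CTR1* in *snf2Δ* cells, dropping each *snf2Δ* library in turn, or wt library 1 or 3, ended the call, with adjusted p between 0.0559 and 0.209. In *snf5Δ* cells dropping library 2 or 3, or wt library 1, did so, with adjusted p between 0.0842 and 0.174. Library totals put *CTR1* at -0.74 in *snf2Δ* and -0.64 in *snf5Δ* cells (adjusted p = 0.096 and 0.116), and limma at -0.70 and -0.41 (adjusted p = 0.22 and 0.306). In YPD+Cys none of the 4 was called in either mutant with edgeR, and 1 had an unadjusted p under 0.05 in each. Of all 5757 genes, 1839 in *snf2Δ* and 1952 in *snf5Δ* cells had such a p. DESeq2 also called none, while limma on log2(TPM + 1) called none in *snf2Δ* and 2 higher in *snf5Δ* cells. In wt cells *CTR1* and *FRE7* were lower in YPD+Cys than in YPD, by 2.36 and 3.69 on the log2 scale. With the compared groups alone *CTR1* was not called there (-2.34, adjusted p = 0.072). *CTR1* was also lower in YPD+Cys in *snf2Δ* cells, by 1.48 (adjusted p = 0.0386), and in *snf5Δ* cells, by 1.46 (adjusted p = 0.0335), calls that ended when each YPD+Cys or YPD library of the strain was left out in turn (adjusted p from 0.0554 to 0.266). The response of *CTR1* was not called different from that of wt in either mutant (adjusted p = 1.00 each).

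**Figure D5:**
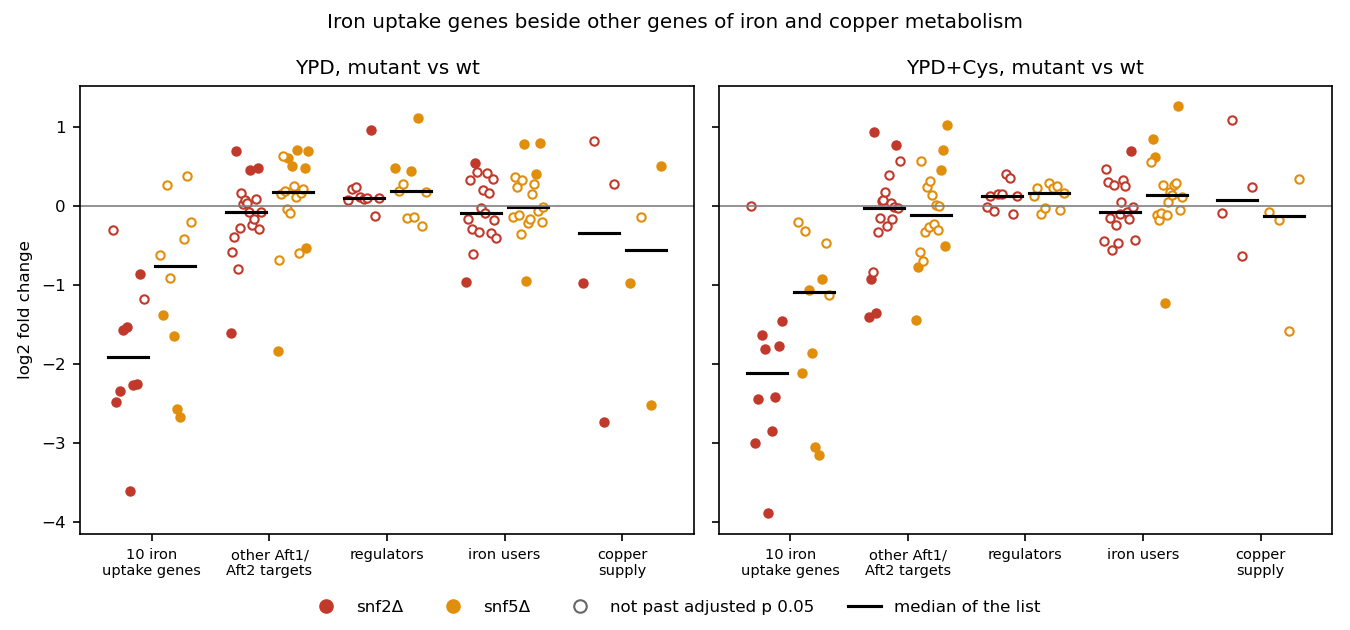
Log2 fold changes against wt of the 10 iron uptake genes and of the other lists, in YPD (left) and YPD+Cys (right), *snf2Δ* left of *snf5Δ* within each list. Each point is a gene, filled where the adjusted p was under 0.05, and bars are list medians. The median of the 10 genes is -1.91 in *snf2Δ* and -0.765 in *snf5Δ* cells in YPD, while those of the 18 other Aft1 and Aft2 targets are -0.078 and 0.17.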

How the data were processed

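RNA was depleted of ribosomal RNA and sequenced from 18 libraries of 6 groups. Per the labels and the study's methods, the authors used bcl2fastq 2.18, aligned reads with STAR 2.7.3a to sacCer3 with Ensembl gene models, and deposited counts per gene with no normalization. Use of strand in counting is not given in the sources used here. The authors also deposited TPM and expected counts from RSEM 1.3.0. RSEM's expected counts were 0.651 (FIT3) to 0.867 (FIT1) of the STAR counts of the 10 genes. Lines that name no gene, 4 in all, held 14.4% to 78.2% of the reads and did not enter library sizes or tests.

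Genes were kept by filterByExpr, scaled by TMM and tested in 1 fit of all groups with edgeR 4.0.16 (quasi-likelihood test, R 4.3.3), called at a Benjamini-Hochberg adjusted p under 0.05 over 5757 genes. Each mutant was compared with wt, *snf5Δ* with *snf2Δ*, and YPD+Cys with YPD, with the difference of responses. Alternatives were RLE, library totals, no filter, 10 counts in every library, DESeq2 1.42.0, expected counts rounded to whole numbers, limma 3.58.1 on log2(TPM + 1) and log2(TPM + 0.1) for a mean TPM of at least 1 or without filter, compared groups alone, replicate blocks, and libraries left out. Of 7127 identifiers, 6047 matched RefSeq R64, with all 10 gene lengths equal. The test was checked on simulated data, with as many genes raised as lowered in the *snf2Δ* libraries in YPD. This does not check the choice of scaling.

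The text names all 10 genes, up to 6 called genes per list and comparison, and the 5 genes most alike in pattern. Members, lists and tests were chosen with earlier results of these data known. The labels do not say that replicates are separate cultures, so p-values measure the spread between these libraries. Deviations from group means correlated between same-numbered YPD+Cys and YPD libraries of a strain, at 0.247 to 0.802. Between same-numbered *snf5Δ* and *snf2Δ* libraries r was 0.468, 0.107 and 0.567 in YPD and 0.48, 0.0729 and 0.583 in YPD+Cys. Between mutant and wt libraries it had both signs, from -0.312 to 0.321.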

Additional observations from a re-analysis of the deposited data

Results flagged for a closer look

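The following differences between the mutants passed the test of the difference itself. *FIT3* was higher in *snf5Δ* than in *snf2Δ* cells by 2.599 on the log2 scale in YPD and by 2.115 in YPD+Cys (edgeR, adjusted p = 6.4e-06 and 5.96e-05), and no library overlapped. *FET3* was higher by 1.832 in YPD and 1.49 in YPD+Cys (adjusted p = 0.00472 and 0.0174). *FTR1* was higher by 1.23 in YPD and 1.298 in YPD+Cys (adjusted p = 0.00212 and 0.000922). Each was higher in all 3 *snf5Δ* libraries than in all 3 *snf2Δ* libraries, in both media. Without the libraries with many multiply placed reads, *FET3* and *FTR1* differed by 1.53 and 1.13 in YPD, where 1 *snf2Δ* library was left. The call of *FET3* in YPD+Cys was lost with the compared groups alone and without *snf2Δ* replicate 1 or *snf5Δ* replicate 1 or 2.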

How the results depend on the processing

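The depth, 1329986 to 4845830 counts in genes, limits *FIT1* most, which had 532 counts over all libraries. Of the 10 genes, 5 instead of 8 were called in *snf2Δ* cells in YPD without the 3 libraries with many multiply placed reads, and 6 with limma on log2(TPM + 1), which in YPD+Cys called 7 instead of 9 in *snf2Δ* and 4 instead of 6 in *snf5Δ* cells. For *snf5Δ* against *snf2Δ* cells in YPD, 5 were called by DESeq2 and 1 without those libraries, instead of 3. For cysteine in wt cells, 0 instead of 1 were called with expected counts, the limma fits and the compared groups alone. With the block within strain the cysteine comparisons had 3 in wt and 2 in *snf5Δ* cells, and the differences of response 1 for *snf2Δ* and 2 for *snf5Δ* cells. Replicate number as a block across all strains called *TIS11* lower in *snf2Δ* cells in YPD (-1.16, adjusted p = 0.038) and in *snf5Δ* cells in YPD+Cys (-1.04, adjusted p = 0.0265). Deviations of same-numbered mutant and wt libraries there correlated at -0.312 to 0.195 and at -0.0904 to 0.216. Leaving out each library in turn gave 7 to 9 genes in *snf2Δ* and 4 to 5 in *snf5Δ* cells in YPD, 8 to 9 and 4 to 7 in YPD+Cys, 0 to 1 for cysteine in wt cells, 0 for both other strains and both differences of response, and 3 in YPD and 2 to 3 in YPD+Cys for *snf5Δ* against *snf2Δ* cells. In *snf5Δ* against wt cells in YPD+Cys, limma on TPM turned *FET4* to 0.3452 and 0.333 and *FRE2* to 0.02527 and 0.01271. In these fits 3528 to 3557 genes were called. Over all genes, the count of calls for *snf2Δ* against wt in YPD was 287 to 327 with limma, 688 for the groups alone and 531 without the 3 libraries, instead of 1136. It was 755 without *snf2Δ* replicate 1. Instead of 1113 and 1212 in YPD+Cys, 571 were called for *snf2Δ* with the groups alone, 629 without wt replicate 3 and 720 without *snf2Δ* replicate 1, and 803 for *snf5Δ* without *snf5Δ* replicate 2. For cysteine, 25, 37 and 52 genes in wt, *snf2Δ* and *snf5Δ* cells became 358, 299 and 207 with the block within strain, 10, 17 and 30 with limma on log2(TPM + 1), and 6 and 23 in wt and *snf2Δ* cells with the groups alone, and DESeq2 called 42 in wt cells. The differences of response, 5 for *snf2Δ* and 19 for *snf5Δ* cells, became 32 and 84 with that block, 14 and 29 with DESeq2 and 2 and 8 with limma. For *snf5Δ* against *snf2Δ* cells, 172 in YPD and 146 in YPD+Cys became 305 and 266 with the replicate block, 46 and 53 with limma and 109 and 95 with the groups alone, and 21 in YPD without the 3 libraries. Leaving out replicate 1 or 2 of either strain gave 64 to 92 in YPD and 78 to 89 in YPD+Cys, and cysteine in *snf2Δ* cells had 21 without YPD+Cys replicate 3. The cause was not tested.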
